A study of Homo sapiens with 16 samples.

Results

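The comparison asked what the EZH2 inhibitor EPZ-6438 changed in IMR5-75 cells that also received DAC. IMR5-75 is a human neuroblastoma line with amplified MYCN. All libraries of both groups came from cells given DAC at 1 µM for 72 h. The DAC+EPZ group (2 libraries, DAC+EPZ 1 and DAC+EPZ 2) additionally received EPZ-6438 at 1 µM for 96 h, and the DAC group (2 libraries, DAC 1 and DAC 2) did not. These 4 libraries were chosen by their labels from the 16 of the series. The others are the IMR5-75 groups given EPZ-6438 alone (EPZ below) or the solvent DMSO, and the same 4 treatments of Be(2)-C, another neuroblastoma line with amplified MYCN, with 2 libraries each. The labels leave unsaid whether the 2 replicates of a group were independent cultures. P-values therefore reflect only the spread between replicate libraries, taken over all 8 groups of both lines, and that spread may be technical.

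EZH2 is the catalytic subunit of Polycomb repressive complex 2, which methylates lysine 27 of histone H3 at silent genes, many of them developmental regulators. EPZ-6438 competes with the methyl donor of EZH2. DAC is not written out in the labels. It is the common abbreviation of decitabine, a cytidine analogue that is built into DNA and traps DNA methyltransferases, so that CpG methylation is lost as cells divide. Both kinds of mark silence genes in neuroblastoma cells, and which of them holds a given gene differs from gene to gene.

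The 4 libraries held 12160472 to 13388548 counts, and 15967 of the 23459 genes in the table passed the filter on low counts and were tested. Levels are CPM, counts scaled to library size. Changes are log2 fold changes ± SE, DAC+EPZ over DAC, and a gene was called at an adjusted p under 0.05. Markers of the neuroblast lineage were present in all 4 libraries. CHGA, chromogranin A of dense-core vesicles, had 740 and 828 CPM in DAC+EPZ cells, against 755 and 589 CPM in DAC cells. TH, the first enzyme of catecholamine synthesis, was at or near 0 throughout (0 and 0.206 CPM in DAC+EPZ cells, 0.142 and 0 CPM in DAC cells).

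EPZ-6438 on top of DAC changed 309 of the 15967 genes (1.94%), with 194 higher (1.22%) and 115 lower (0.72%). Genes of the extracellular matrix and of mesenchymal-type cells, secreted BMP and WNT antagonists, NOTCH effectors, neurofilaments and neuropeptides were among the genes that rose. Genes of mitosis made up 29 of the 115 that fell. Most rises were of moderate size, with a median of 0.98 over the called higher genes, and the falls were smaller, with a median of -0.59. The DESeq2 Wald test called 174 genes higher and 121 lower. The count depended on single libraries. It was 74 without DAC+EPZ 1, 49 without DAC+EPZ 2, 228 without DAC 1 and 50 without DAC 2, and without DAC 2 the 50 were 47 higher and 3 lower.

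The genes with the largest rises had low levels in DAC cells, and 10 of the 12 highest changes had a mean under 1 CPM there. ANXA1, an annexin that binds membrane phospholipids, had 4.33 and 4.06 CPM in DAC+EPZ cells, against 0.496 and 0.624 CPM in DAC cells (2.89 ± 0.48, adjusted p = 0.00338). These levels rest on 118 counts in DAC+EPZ cells and 15 in DAC cells over each group. TGFBI, a secreted matrix protein induced by TGF-beta, had 21.3 and 19.7 CPM in DAC+EPZ cells, against 5.66 and 5.22 CPM in DAC cells (1.91 ± 0.22, adjusted p = 0.00015). ALDH1A1, a retinaldehyde dehydrogenase of retinoic acid synthesis, had 10.7 and 7.42 CPM in DAC+EPZ cells, against 1.42 and 2.34 CPM in DAC cells (2.27 ± 0.34, adjusted p = 0.00171). These 3 genes kept their call when each of the 4 libraries was left out in turn.

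The promoters of ANXA1 and TGFBI are shown because they are the largest rise and the smallest adjusted p among these 12 genes. Each window runs from 250 bases before to 50 bases after the most upstream RefSeq start (GRCh38.p14, plus strand), with every CpG in capitals. The TGFBI window (chr5:136028738-136029037) holds 27 CpG and the ANXA1 window (chr9:73151615-73151914) holds 0. No methylation was measured here.
TGFBI: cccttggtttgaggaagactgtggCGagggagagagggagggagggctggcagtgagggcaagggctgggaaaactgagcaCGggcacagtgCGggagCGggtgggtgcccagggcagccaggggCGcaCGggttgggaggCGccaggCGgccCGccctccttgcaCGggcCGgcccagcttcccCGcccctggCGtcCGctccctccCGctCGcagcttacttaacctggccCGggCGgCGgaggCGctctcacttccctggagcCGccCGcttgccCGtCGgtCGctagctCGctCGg
ANXA1: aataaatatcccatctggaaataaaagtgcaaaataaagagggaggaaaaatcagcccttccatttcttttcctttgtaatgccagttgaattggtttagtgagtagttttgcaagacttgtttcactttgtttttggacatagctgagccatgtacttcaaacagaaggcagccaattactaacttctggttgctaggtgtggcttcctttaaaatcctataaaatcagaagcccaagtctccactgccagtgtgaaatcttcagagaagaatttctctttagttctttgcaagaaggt

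The other 9 of the 12 highest changes lay between 1.80 and 2.48. RAX, a homeobox regulator of the eye field, had 2.05 and 2.20 CPM in DAC+EPZ cells, against 0.283 and 0.468 CPM in DAC cells (2.48 ± 0.53, adjusted p = 0.0207). GREM1, a secreted BMP antagonist, had 4.04 and 2.13 CPM in DAC+EPZ cells, against 0.496 and 1.01 CPM in DAC cells (2.03 ± 0.38, adjusted p = 0.00826). F11R, a tight junction adhesion protein, had 3.52 and 3.57 CPM in DAC+EPZ cells, against 0.708 and 1.17 CPM in DAC cells (1.92 ± 0.34, adjusted p = 0.00537). The DAC+EPZ libraries of GREM1 lay apart from each other, and those of RAX and F11R close together. The rule that chose the 12 genes required separate groups, so it also set their direction in the fits that left out a library. EPHA8, an ephrin receptor, rose by 1.99 ± 0.39 (adjusted p = 0.011), and SPIN3, of a family of histone readers, by 1.80 ± 0.38 (adjusted p = 0.0158). MAB21L2, a gene of eye development, rose by 1.86 ± 0.47 (adjusted p = 0.0421). SHE rose by 2.21 ± 0.51 and TMEM74B by 2.04 ± 0.52. TIE1, an endothelial receptor kinase, had 3.01 and 2.41 CPM in DAC+EPZ cells, against 0.425 and 0.858 CPM in DAC cells (2.08 ± 0.42, adjusted p = 0.0127). The 11 endothelial markers summed to 8.59 to 9.48 CPM in DAC+EPZ cells and 5.45 to 7.02 CPM in DAC cells, with PECAM1 at 0.147 and 0.206 CPM against 0 and 0.156 CPM, and TIE1 was the called gene among the 6 that were tested. Of these 12 genes, 3 were called when DAC 1 was left out, 5 when DAC 2 was, 5 when DAC+EPZ 1 was and 4 when DAC+EPZ 2 was, and all 12 stayed higher in each of those fits.

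**Figure D1:**
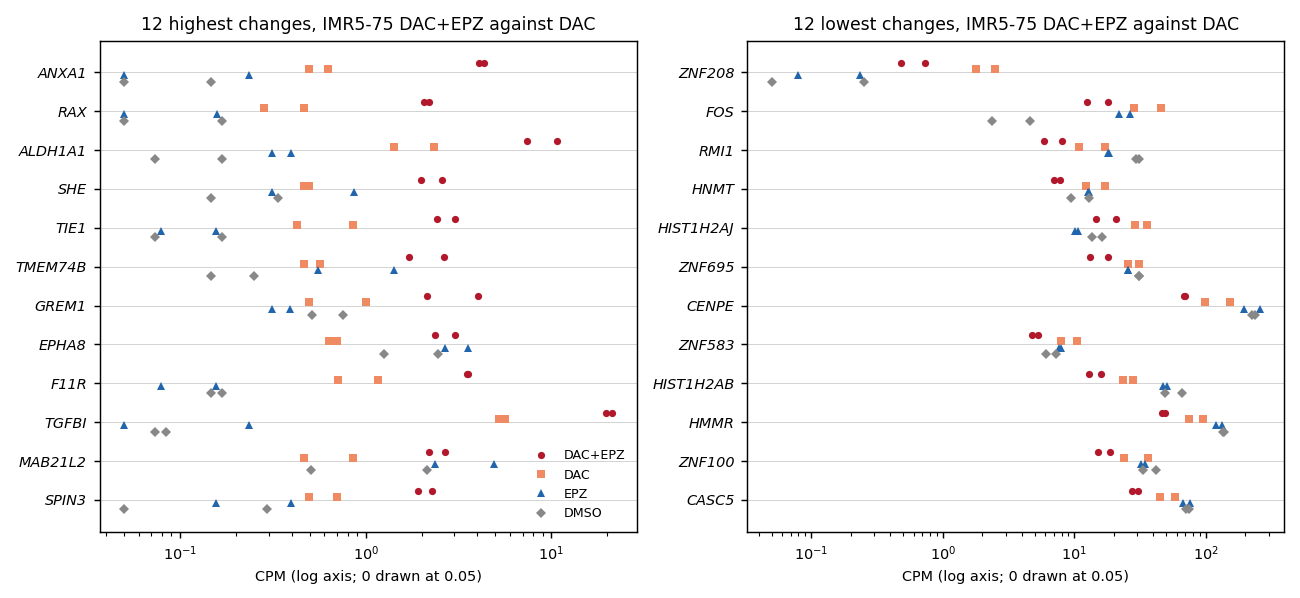
Level of the 12 genes with the highest and the 12 with the lowest called changes in each IMR5-75 library (x axis, CPM on a log scale, with 0 drawn at 0.05; 1 row per gene, 2 points per group). In the left panel the DAC+EPZ points lie right of the DAC points for all 12 genes, and in the right panel left of them, as the rule that chose them required; TGFBI is near 20 CPM in DAC+EPZ cells and under 0.3 CPM in EPZ and DMSO cells.

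Across all 194 called higher genes the median level was 12.8 CPM in DAC+EPZ cells and 6.31 CPM in DAC cells, with 4.35 CPM in EPZ cells and 2.6 CPM in DMSO cells. In DMSO cells 72 of the 194 (37.1%) had a mean under 1 CPM, as did 17.9% of all tested genes. The DAC+EPZ mean was the highest of the 4 IMR5-75 groups for 181 of the 194, against 5289 of the 15967 tested genes. TGFBI is an example, with 0.236 and 0 CPM in EPZ cells and 0.0737 and 0.0841 CPM in DMSO cells. Being above DAC is part of how these genes were called, so this describes how their levels were ordered over the 4 groups.

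Mesenchymal-type genes, which mark the less neuronal of the cell states described in neuroblastoma, had 10 of 50 tested members higher (20.0%) and 0 lower, with a median change of 0.33 against -0.00 over all tested genes. Of the 60 members, 10 did not pass the filter. This list and those below, and their members, were chosen with earlier results of these data known. COL3A1, a fibrillar collagen, had 428 and 409 CPM in DAC+EPZ cells, against 221 and 228 CPM in DAC cells (0.90 ± 0.14, adjusted p = 0.00164). COL6A3, a chain of collagen VI, had 7.41 and 8.39 CPM in DAC+EPZ cells, against 2.62 and 2.81 CPM in DAC cells (1.54 ± 0.23, adjusted p = 0.00164). Both genes had tight replicates and kept their call without each library. The other called members were ANXA1, TGFBI, COL5A2, TNC, the proteoglycan gene DCN, LGALS1, S100A6 and MAML2. The count of called members was 5 without DAC+EPZ 1, 4 without DAC+EPZ 2, 6 without DAC 1 and 4 without DAC 2.

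Collagens, laminins and other matrix genes had 9 of 75 tested members higher (12%) and 0 lower (median 0.32), and share COL3A1, COL5A2, COL6A3 and TNC with the mesenchymal-type list. The other 5 were COL2A1, COL9A2 and COL11A1, which are cartilage collagens, with LAMC3, a laminin chain, and FBLN2, an elastic fibre protein. COL11A1 had 13.5 and 11.6 CPM in DAC+EPZ cells, against 6.09 and 5.93 CPM in DAC cells (1.06 ± 0.24, adjusted p = 0.0235). FBLN2 had 27.6 and 32.1 CPM in DAC+EPZ cells, against 17.7 and 17.5 CPM in DAC cells (0.76 ± 0.15, adjusted p = 0.011). The called members numbered 3 without DAC+EPZ 1, 2 without DAC+EPZ 2, 6 without DAC 1 and 2 without DAC 2.

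In the BMP and TGF-beta pathway, where secreted ligands signal through receptor kinases and SMAD proteins, 6 of 42 tested members rose (14.3%) and 0 fell (median 0.34). FST, follistatin, which binds activins, had 29.7 and 30.0 CPM in DAC+EPZ cells, against 15.8 and 17.5 CPM in DAC cells (0.84 ± 0.16, adjusted p = 0.0103), and GREM1 is described above. TGFBR2, a TGF-beta receptor, rose by 0.74 ± 0.18 (adjusted p = 0.0341). MSX2, a homeobox target of BMP signalling, had 36.7 and 40.7 CPM in DAC+EPZ cells, against 17.3 and 14.5 CPM in DAC cells (1.28 ± 0.16, adjusted p = 0.000361), and its paralog MSX1 rose by 0.95 ± 0.18 (adjusted p = 0.00926). MSX1 and MSX2 were also the 2 called among 92 tested developmental transcription factors (2.17% higher, against 1.22% of all tested genes). Of the pathway's members, 3 were called without DAC+EPZ 1, 3 without DAC+EPZ 2, 4 without DAC 1 and 3 without DAC 2.

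WNT pathway genes had 3 of 41 tested members higher (7.32%) and 0 lower (median 0.28). DKK1, a secreted WNT antagonist, had 66.3 and 62.5 CPM in DAC+EPZ cells, against 32.2 and 30.6 CPM in DAC cells (1.04 ± 0.19, adjusted p = 0.00649). WNT6, a ligand, had 4.92 and 5.22 CPM in DAC+EPZ cells, against 1.91 and 1.17 CPM in DAC cells (1.70 ± 0.32, adjusted p = 0.00917). NKD1, an intracellular inhibitor, rose by 0.94 ± 0.19 (adjusted p = 0.0142). The list had 2 called members without DAC+EPZ 1, 1 without DAC+EPZ 2, 4 without DAC 1 and 0 without DAC 2, and DKK1 missed the threshold in 1 of the 4 fits (adjusted p up to 0.0617). NOTCH pathway genes had 3 of 26 higher (11.5%) and 0 lower (median 0.28). HES1, the repressor induced by NOTCH, had 17.6 and 20.0 CPM in DAC+EPZ cells, against 9.28 and 7.17 CPM in DAC cells (1.19 ± 0.19, adjusted p = 0.00188). HEY1, a related repressor, rose by 0.71 ± 0.17 (adjusted p = 0.0348), and MAML2, a coactivator, by 1.00 ± 0.25 (adjusted p = 0.0404). Of these 3, HES1 was called in all 4 fits that left out a library, and HEY1 and MAML2 in 0 of the 4. The NOTCH list's median was 0.13 without DAC 2 and 0.49 without DAC 1.

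**Figure D2:**
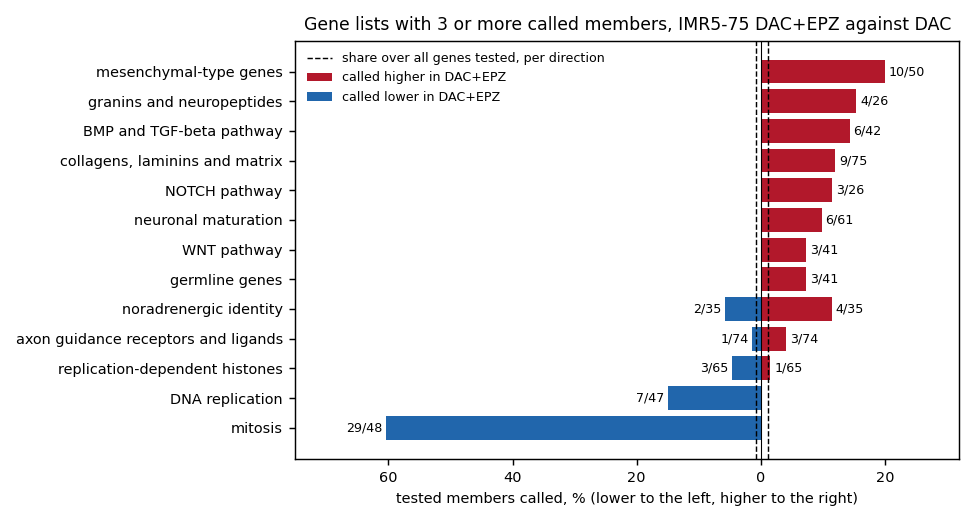
Share of the tested members of each gene list called higher (right, red) or lower (left, blue) in DAC+EPZ over DAC cells, for lists with at least 3 called members in 1 direction, with counts beside the bars and dashed lines at the shares over all tested genes (1.22% higher, 0.72% lower). Mitosis reaches 60.4% lower, and mesenchymal-type genes 20.0% higher. The lists were chosen with earlier results of these data known.

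Neuronal maturation genes had 6 of 61 tested members higher (9.84%) and 0 lower (median 0.27). NEFM, the medium neurofilament subunit, had 301 and 255 CPM in DAC+EPZ cells, against 129 and 132 CPM in DAC cells (1.09 ± 0.13, adjusted p = 0.00015). NEFL, the light subunit, rose less, with 236 and 242 CPM in DAC+EPZ cells, against 180 and 169 CPM in DAC cells (0.45 ± 0.10, adjusted p = 0.0207). PRPH, the intermediate filament peripherin of peripheral neurons, rose by 0.67 ± 0.15 (adjusted p = 0.0233), and STMN2, a microtubule regulator of growing axons, by 1.39 ± 0.23 (adjusted p = 0.00338). SYT4, a synaptotagmin, rose by 0.79 ± 0.18 (adjusted p = 0.0264), and the sixth gene was SCG2. The list had 3 called members without DAC+EPZ 1, 3 without DAC+EPZ 2, 5 without DAC 1 and 3 without DAC 2.

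Granins and neuropeptides, the cargo of dense-core vesicles, had 4 of 26 tested members higher (15.4%) and 0 lower (median 0.52). ADCYAP1, which encodes the neuropeptide PACAP, had 30.4 and 33.5 CPM in DAC+EPZ cells, against 17.2 and 15.8 CPM in DAC cells (0.95 ± 0.13, adjusted p = 0.000843). CHGB, chromogranin B, had 131 and 121 CPM in DAC+EPZ cells, against 73.5 and 76.6 CPM in DAC cells (0.75 ± 0.13, adjusted p = 0.00569). Both kept their call without each library. SCG2, secretogranin II, rose by 0.63 ± 0.15 (adjusted p = 0.0305) and lost the call without each library (adjusted p between 0.0689 and 0.122), and PCSK1N, a convertase inhibitor, rose by 1.17 ± 0.29 (adjusted p = 0.0437). The list had 3 called members without DAC 1 and 2 in each of the other 3 fits.

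Genes of the noradrenergic identity, the sympathetic neuroblast state, went both ways, with 4 of 35 tested members higher and 2 lower (11.4% and 5.71%, median 0.11). CHGB, PRPH, STMN2 and RGS5 rose. RGS5, a regulator of G-protein signalling, had 71.9 and 54.4 CPM in DAC+EPZ cells, against 32.1 and 35.6 CPM in DAC cells (0.90 ± 0.13, adjusted p = 0.00164). LIN28B, an inhibitor of let-7 maturation, fell by 0.59 ± 0.15 (adjusted p = 0.0466). Without DAC 2 the list had 3 higher, 0 lower and a median of -0.00, and without DAC+EPZ 2 it had 2 higher and 0 lower.

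Germline genes had 3 of 41 tested members higher (7.32%) and 0 lower (median 0.51). TDRD1, a Tudor protein of the piRNA pathway, had 32 and 28.2 CPM in DAC+EPZ cells, against 16.1 and 21.0 CPM in DAC cells (0.70 ± 0.15, adjusted p = 0.0207). TKTL1, a transketolase-like gene, had 23.2 and 19.2 CPM in DAC+EPZ cells, against 8.50 and 6.63 CPM in DAC cells (1.48 ± 0.22, adjusted p = 0.00164). The third was the meiotic gene listed in the table as C16orf73 (1.68 ± 0.42, adjusted p = 0.0427). All 3 were at or under 0.551 CPM in each EPZ and DMSO library. TKTL1 kept its call in all 4 fits that left out a library, TDRD1 in 1 of 4 and C16orf73 in 0 of 4, and the list had 1 called member without either DAC+EPZ library and 2 without either DAC library. Cancer-testis genes had 2 of 32 higher (6.25%, against 1.22% of all tested genes) and 0 lower. The 2 were PRAME and CT45A5, and CT45A5 has near-identical copies that can share reads. Their number was 1 without DAC+EPZ 1 and 0 in each of the other 3 fits. Among axon guidance genes 3 of 74 were higher (4.05%, NRP1, ROBO2 and EPHA8) and 1 was lower (1.35%, EPHA7). Over all tested genes 1.22% were higher and 0.72% lower. Fewer axon guidance genes were called higher in each fit that left out a library.

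Mitosis genes, which encode cyclins, kinases, spindle motors and kinetochore proteins, had 29 of 48 tested members lower (60.4%, against 0.72% of all tested genes) and 0 higher. The list was chosen with earlier results of these data known, so its share is a description and not an independent test. The change was below 0 in 48 of 48, between -0.86 and -0.21 with a median of -0.57. CCNA2, cyclin A2, had 70.1 and 76.6 CPM in DAC+EPZ cells, against 118 and 136 CPM in DAC cells (-0.79 ± 0.12, adjusted p = 0.00164). AURKA, a spindle pole kinase, had 50.0 and 51.5 CPM in DAC+EPZ cells, against 76.5 and 84.5 CPM in DAC cells (-0.67 ± 0.11, adjusted p = 0.00281). KIF20A, a motor of cytokinesis, had 106 and 112 CPM in DAC+EPZ cells, against 165 and 176 CPM in DAC cells (-0.64 ± 0.11, adjusted p = 0.00338). In each of these 3 genes the DAC+EPZ libraries lay close together. In bulk RNA, fewer cells in mitosis and less of these transcripts per cell cannot be told apart.

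Among the other called mitosis genes, CENPE, a kinetochore motor, had 68.6 and 69.8 CPM in DAC+EPZ cells, against 98.5 and 152 CPM in DAC cells (-0.86 ± 0.17, adjusted p = 0.0119). TOP2A, the topoisomerase that untangles sister chromatids, had 375 and 326 CPM in DAC+EPZ cells, against 469 and 611 CPM in DAC cells (-0.63 ± 0.14, adjusted p = 0.0221). CDK1, the mitotic kinase, had 101 and 91.5 CPM in DAC+EPZ cells, against 141 and 176 CPM in DAC cells (-0.73 ± 0.15, adjusted p = 0.0141). The DAC 2 library was the higher of the DAC replicates in all 3, and it exceeded DAC 1 in 38 of the 48 genes. Summed over the list the level was 4227 and 4118 CPM in DAC+EPZ cells, against 5766 and 6666 CPM in DAC cells. The mean was the lowest of the 4 IMR5-75 groups in DAC+EPZ cells for all 48 genes, against 5255 of the 15967 tested genes. It was the highest in DMSO cells for 44. Being below DAC is part of how the called members were called.

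The number of mitosis genes called depended on DAC 2 and on having both DAC+EPZ libraries. It was 2 without DAC+EPZ 1, 4 without DAC+EPZ 2, 28 without DAC 1 and 1 without DAC 2, while the median change stayed at -0.56, -0.54, -0.60 and -0.45 in those fits. CCNA2 kept its call in all 4, and AURKA and KIF20A in 2 of 4. The difference between the DAC replicates was not tested as a cause.

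**Figure D3:**
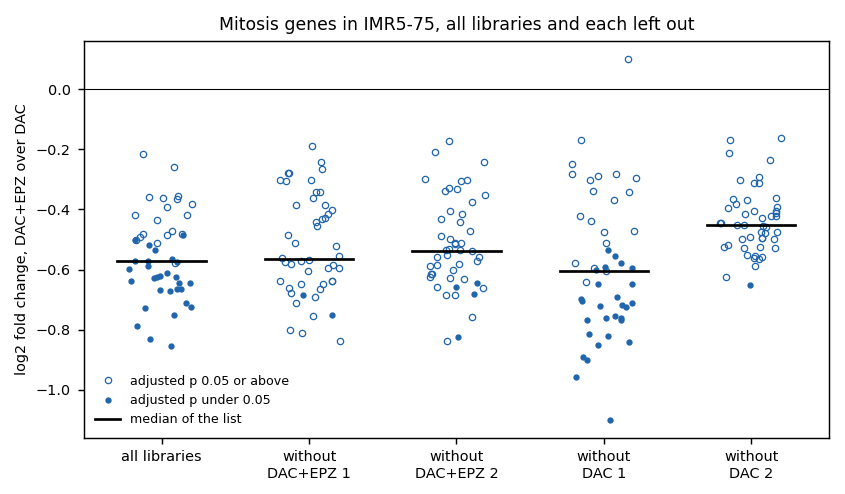
Change of each of the 48 mitosis genes in IMR5-75 (y axis, log2 fold change, DAC+EPZ over DAC) with all libraries and with each of the 4 compared libraries left out; filled points have an adjusted p under 0.05 and bars mark the median. The median stays between -0.60 and -0.45, while the filled points number 29, 2, 4, 28 and 1.

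Promoters of mitosis genes often pair CCAAT boxes with the cell cycle genes homology region, TTTGAA, through which the DREAM complex represses them in resting cells. CENPF, NUSAP1 and CKS2 are shown, the 3 called mitosis genes with the smallest adjusted p among those whose RefSeq window holds both. CENPF is a kinetochore protein, NUSAP1 binds spindle microtubules and CKS2 is a subunit of cyclin-dependent kinases. The windows are chr1:214602945-214603244 for CENPF, chr15:41332631-41332930 for NUSAP1 and chr9:89310945-89311244 for CKS2 (GRCh38.p14, plus strand), with CCAAT and TTTGAA on either strand in capitals.
CENPF: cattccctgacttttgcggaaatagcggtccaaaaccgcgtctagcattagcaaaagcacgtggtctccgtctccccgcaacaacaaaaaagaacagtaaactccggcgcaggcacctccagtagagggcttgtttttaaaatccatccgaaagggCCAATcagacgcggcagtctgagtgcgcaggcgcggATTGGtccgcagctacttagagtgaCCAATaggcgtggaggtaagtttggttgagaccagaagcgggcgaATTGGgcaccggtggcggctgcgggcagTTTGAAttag
NUSAP1: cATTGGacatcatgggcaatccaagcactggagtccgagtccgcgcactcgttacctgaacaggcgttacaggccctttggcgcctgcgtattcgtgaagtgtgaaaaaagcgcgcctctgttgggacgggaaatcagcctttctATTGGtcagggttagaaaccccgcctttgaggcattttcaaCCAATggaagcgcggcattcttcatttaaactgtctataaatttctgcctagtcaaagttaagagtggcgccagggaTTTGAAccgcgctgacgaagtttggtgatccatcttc
CKS2: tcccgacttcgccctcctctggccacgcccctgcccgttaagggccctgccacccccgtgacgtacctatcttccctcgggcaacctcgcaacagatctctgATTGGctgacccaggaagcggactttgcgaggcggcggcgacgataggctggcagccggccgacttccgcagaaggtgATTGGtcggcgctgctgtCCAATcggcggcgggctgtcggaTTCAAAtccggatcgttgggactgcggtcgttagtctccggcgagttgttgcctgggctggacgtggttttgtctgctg

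Of the 29 called mitosis genes, 27 had a window in the RefSeq table. CCAAT stood on either strand in 21 of the 27 (77.8%), TTTGAA in 19 (70.4%) and both in 16 (59.3%). Over the whole mitosis list, with a window for 42 of 48 genes, the shares were 81.0%, 71.4% and 61.9%, so the called genes were not richer in these letters than their list. Over all 35116 windows of the table, which are not limited to tested genes, the shares were 34.6%, 15.2% and 5.90%. Of the 15967 tested genes 11940 (74.8%) had a window, and among these the shares were 36.2%, 10% and 4.17%. That coverage was below the 87.5% of the mitosis list, and genes without a window could not be searched. Of the called lower genes outside the mitosis list, 74 of 86 had a window, and 21.6% of the 74 held both. A match describes the letters in the window and not a binding site. CENPF itself had 463 and 439 CPM in DAC+EPZ cells, against 662 and 857 CPM in DAC cells (-0.75 ± 0.13, adjusted p = 0.00369). NUSAP1 fell by 0.63 ± 0.12 (adjusted p = 0.00821) and CKS2 by 0.59 ± 0.11 (adjusted p = 0.00847).

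DNA replication genes had 7 of 47 tested members lower (14.9%) and 0 higher, with a median of -0.34 and 46 of 47 below 0. MCM10, a replication initiation factor, had 79.0 and 77.5 CPM in DAC+EPZ cells, against 107 and 120 CPM in DAC cells (-0.54 ± 0.11, adjusted p = 0.0135). RFC3, a clamp loader subunit, fell by 0.62 ± 0.13 (adjusted p = 0.0207), ORC6, of the origin recognition complex, by 0.49 ± 0.11 (adjusted p = 0.0278), and PCNA, the sliding clamp, by 0.47 ± 0.11 (adjusted p = 0.0289). ORC1, CDC7 and CDC45 were the others. The list had 3 called members without DAC 1 and 0 in each of the other fits that left out a library. Replication-dependent histones had 3 of 65 lower (4.62%, HIST1H2AB, HIST1H2AJ and HIST1H3J) and 1 higher (1.54%, HIST1H3F). Over all tested genes 0.72% were lower and 1.22% higher. Copies of these histone genes can exchange reads, and the list's median of -0.21 turned to 0.05 without DAC 1 and 0.03 without DAC+EPZ 1. MYC and MYCN targets had 0 of 39 called, with a median of -0.25 (-0.12 without DAC 1) and 37 of 39 below 0.

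The 12 lowest changes held CENPE, HMMR and CASC5 of the spindle and kinetochore, and zinc finger genes. These genes were chosen with both DAC+EPZ libraries below both DAC libraries. That rule also set their direction in the fits that left out a library. CASC5, a kinetochore scaffold, had 30.7 and 27.5 CPM in DAC+EPZ cells, against 45 and 58.1 CPM in DAC cells (-0.82 ± 0.15, adjusted p = 0.00826). HMMR, a spindle protein and hyaluronan receptor, fell by 0.83 ± 0.16 (adjusted p = 0.00866). ZNF208, a zinc finger gene, had 0.734 and 0.481 CPM in DAC+EPZ cells, against 2.48 and 1.79 CPM in DAC cells (-1.81 ± 0.40, adjusted p = 0.0221). ZNF695, ZNF583 and ZNF100, and also RMI1, of a complex that dissolves DNA crossovers, and HNMT, which inactivates histamine, fell by 0.83 to 1.00. Of these 12 genes 9 were called without DAC 1 and 2 in each of the other fits that left out a library, and all 12 stayed lower. Among the 468 tested genes named ZNF with a number, a set chosen after values were seen, 7 were lower (1.5%) and 1 was higher. The shares over all tested genes were 0.72% lower and 1.22% higher. The median change of the set was -0.17 with all libraries and -0.07 without DAC 2.

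The machinery that the drugs act on had no called member. EZH2 had 129 and 129 CPM in DAC+EPZ cells, against 141 and 157 CPM in DAC cells (-0.21 ± 0.10, adjusted p = 0.358). DNMT1, the maintenance methyltransferase, had 203 and 187 CPM in DAC+EPZ cells, against 242 and 220 CPM in DAC cells (-0.25 ± 0.13, adjusted p = 0.374). UHRF1, which recruits DNMT1, was at -0.27 ± 0.11 (adjusted p = 0.245). EZH1 was at 0.20 ± 0.12, SUZ12 at -0.25 ± 0.13 and EED at -0.14 ± 0.14. DNMT3A was at -0.04 ± 0.10 and DNMT3B at -0.18 ± 0.13, with MYCN, the amplified oncogene, at -0.13 ± 0.14. None of these passed the threshold, and transcript levels do not measure enzyme activity.

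Several lists had 0 called members of those tested. They were PRC2 (16), PRC1 (22) and DNA methylation machinery (16), HOX genes (18), interferon-stimulated genes (37), imprinted genes (35), clustered protocadherins (54), ribosomal proteins (82), cholesterol and fatty acid synthesis (33) and p53 targets (33). The ATF4 and unfolded protein response (37), NRF2 targets (24), death receptors and caspases (27), and cell cycle inhibitors with G1 cyclins (23) also had 0. HOX genes and interferon-stimulated genes had positive medians (0.28 and 0.25), with 14 of 18 and 29 of 37 members above 0. The HOX median was 0.60 without DAC 1 and 0.21 to 0.29 without each of the other libraries, and without DAC 1 there were 2 called interferon-stimulated genes. Hypoxia and glycolysis genes had 1 higher (EGLN3) and 1 lower (PDK1) of 36 (2.78% each, against 1.22% higher and 0.72% lower over all tested genes). Synaptic ion channels had 2 higher of 141, KCNK3 among them, and this 1.42% was near the 1.22% of all tested genes. Markers of Schwann and glial cells summed to 1060 CPM in both DAC+EPZ libraries and to 1160 to 1270 CPM in DAC cells. NES was the member with the highest level, and 0 of 12 tested were called. Epithelial markers summed to 8.95 to 10.2 CPM in DAC+EPZ cells and 6.44 to 6.47 CPM in DAC cells, with 0 of 6 called. For haematopoietic markers the sums were 10.3 to 11.1 CPM in DAC+EPZ cells and 8.92 to 9.67 CPM in DAC cells, with CD2 at 0 and 0 of 3 called. The part of other cell types in the results was not tested.

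The same inhibitor without DAC was compared in other libraries of the line, EPZ against DMSO, where 316 genes were called (1.98%), 261 higher (1.63%) and 55 lower (0.344%). Of the 194 genes that rose with DAC, 61 were also called higher without it (31.4% of 194 and 23.4% of 261), and 178 were above 0. Of the 115 that fell with DAC, 4 were called lower without it (3.48% of 115 and 7.27% of 55), and 99 were below 0. The median change without DAC was 0.78 for the 194 and -0.13 for the 115. COL3A1, NRP1, MSX2, HES1, HEY1, FST, PRPH and IGFBP3 were among the genes called higher in both settings. Mitosis genes had 0 of 48 called without DAC, with a median of -0.11. The difference between the changes with and without DAC was called for 0 of the 48, with a median difference of -0.45.

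**Figure D4:**
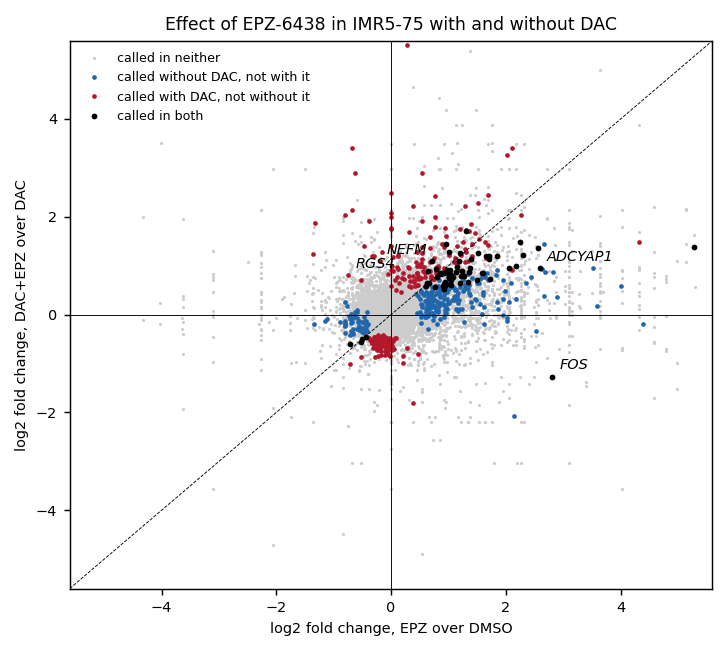
Change of each tested gene in IMR5-75 with DAC (y axis, log2 fold change, DAC+EPZ over DAC) and without it (x axis, EPZ over DMSO), coloured by where it was called, with the 4 genes named whose changes differed; the dashed line marks equal changes and 3 genes lie outside the axes. Red points above 0 lie mostly right of 0, and red points below 0 form a cluster near 0 on the x axis.

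The test of that difference, the effect of EPZ-6438 with DAC minus without it, called 4 of 15967 genes (0.0251%), 2 higher and 2 lower (0.0125% each), with 1107 genes at an unadjusted p under 0.05 and 6 called by the DESeq2 Wald test. FOS, an immediate early transcription factor, had 12.5 and 18.1 CPM in DAC+EPZ cells, against 28.5 and 45.4 CPM in DAC cells (-1.27 ± 0.28, adjusted p = 0.0207). Without DAC it had 22 and 26.4 CPM in EPZ cells, against 2.36 and 4.63 CPM in DMSO cells (2.81 ± 0.34, adjusted p = 0.00021). FOS was the 1 gene called in opposite directions, and the difference of -4.08 ± 0.44 (adjusted p = 0.000137) stayed called without each of the 8 IMR5-75 libraries, whereas the fall with DAC stayed called in 1 of 4 fits, the one without DAC 1. NEFM had 38.3 and 38.8 CPM in EPZ cells, against 49.0 and 39.3 CPM in DMSO cells, so that its rise with DAC had no called counterpart without it (difference 1.29 ± 0.19, adjusted p = 0.0071, called in 6 of 8 fits). RGS4, an inhibitor of G-protein signalling, had 157 and 160 CPM in DAC+EPZ cells, against 83.6 and 97.3 CPM in DAC cells. In EPZ cells RGS4 had 9.30 and 7.47 CPM, against 10.5 and 17.9 CPM in DMSO cells (difference 1.56 ± 0.25, adjusted p = 0.0167, called in 4 of 8 fits). ADCYAP1 rose in both settings, and on the log2 scale more without DAC (2.59 ± 0.21) than with it (0.95 ± 0.13). Without DAC it had 9.38 and 7.79 CPM in EPZ cells, against 1.47 and 1.35 CPM in DMSO cells. The difference was -1.64 ± 0.26 (adjusted p = 0.0138). With a library left out it was -1.74 to -1.48, and most of those fits lost the call. The count over all genes ran from 1 to 10 when each library was left out.

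**Figure D5:**
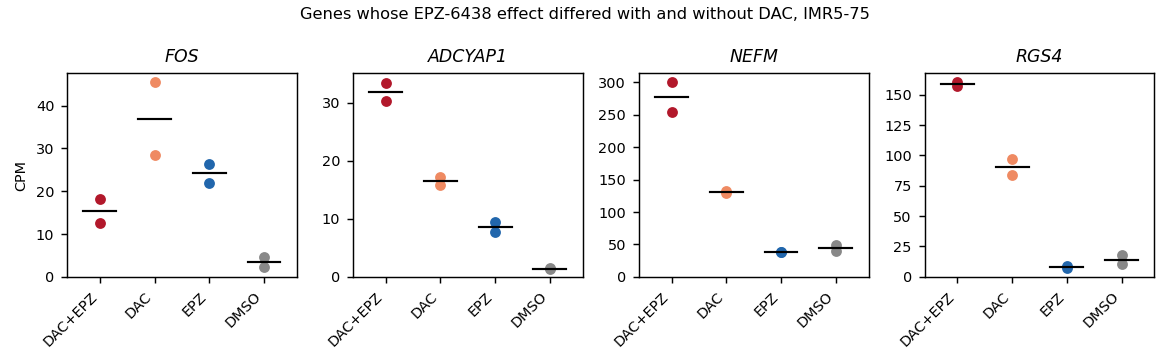
Level in each IMR5-75 library (y axis, CPM, linear from 0; points are libraries and bars the means of 2) of the genes whose EPZ-6438 effect differed with and without DAC. FOS is lower in DAC+EPZ than in DAC cells and higher in EPZ than in DMSO cells, and NEFM and RGS4 are higher in DAC+EPZ than in DAC cells but not in EPZ than in DMSO cells.

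In Be(2)-C the same addition of EPZ-6438 to DAC called 869 genes (5.44%), 546 higher (3.42%) and 323 lower (2.02%). Of the 194 genes that rose in IMR5-75, 49 were also called higher in Be(2)-C (25.3% of 194 and 8.97% of 546), and of the 115 that fell 48 were also called lower (41.7% of 115 and 14.9% of 323). In Be(2)-C 0 of the 309 were called in the opposite direction. The median change there was 0.44 for the 194 and -0.41 for the 115. COL6A3 had 16.7 and 18.2 CPM in Be(2)-C DAC+EPZ cells, against 5.92 and 7.04 CPM in Be(2)-C DAC cells (1.43 ± 0.20, adjusted p = 0.000207). Of the mitosis genes 20 of 48 were lower in Be(2)-C (median -0.44), and the change differed between the lines for 0 of the 48.

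The change itself differed between the lines for 81 genes (0.507%), 30 higher (0.188%) and 51 lower (0.319%) in IMR5-75 relative to Be(2)-C. For the 4 highest and the 4 lowest differences, the highest group compared had to have a mean of at least 2 CPM. All were of genes called in Be(2)-C and not in IMR5-75. F2R and NLGN4X met that level through IMR5-75 alone. In Be(2)-C, F2R had 40 counts in DAC+EPZ cells and 3 in DAC cells, and NLGN4X had 39 and 7. PDGFRA, a growth factor receptor of mesenchymal cells, had 74.2 and 58.5 CPM in IMR5-75 DAC+EPZ cells, against 76.1 and 89.8 CPM in IMR5-75 DAC cells (-0.32 ± 0.12, adjusted p = 0.208). In Be(2)-C it had 18.4 and 19.6 CPM in DAC+EPZ cells, against 3.95 and 4.08 CPM in DAC cells (difference -2.56 ± 0.21, adjusted p = 1.31e-06). TKTL1 was called in IMR5-75 and was at -0.34 ± 0.29 in Be(2)-C (difference 1.82 ± 0.36, adjusted p = 0.0208). NEFM, at 0.18 ± 0.13 in Be(2)-C, differed by 0.91 ± 0.18 (adjusted p = 0.0194).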

How the data were processed

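RNA of 16 libraries was sequenced as 50-base single-end reads from ribosomal-RNA-depleted, directional libraries, per the labels' protocols. The deposited table holds raw counts per gene symbol made by the authors, and the submitters' processing notes name TopHat2 2.0.5, HTSeq 0.5.3p9, DESeq2 and hg19. That counting was done with an annotation and strand setting not given in the sources used here. Values of overlapping, antisense and near-identical genes are therefore uncertain.

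Counts were fitted in R 4.3.3 with edgeR 4.0.16 (filterByExpr, TMM, quasi-likelihood test; with limma 3.58.1 as its dependency) over 8 groups (8 residual df, common biological coefficient of variation 9.877%), with Benjamini-Hochberg adjustment over all 15967 genes at 0.05. Fitting all groups gives them 1 estimate of spread. SE is the change divided by the root of F. All libraries held 9539557 to 14032155 counts. The methods were tested on simulated data. Replicate pairs differed beyond sampling noise.

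Named were the 12 highest and 12 lowest called changes with a group mean of at least 2 CPM and separated libraries, the 3 smallest adjusted p of each list with at least 3 called members, 10 fixed genes, and 4 each way for the difference tests; other called list members are named beside their counts. Some items that these rules name are not reported here. The 41 lists (1286 entries, 11 matched under another symbol) were written from general knowledge, and members and lists were chosen with earlier results of these data known. No set test was run. Alternatives were DESeq2 1.42.0 size factors and Wald test, no filter, a replicate term, a crossed replicate term, each line or the 4 libraries alone, and each library left out, where a lone library is assumed to vary like other groups. Promoters are RefSeq windows on GRCh38.p14, and motif letters were searched on both strands.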

Additional observations from a re-analysis of the deposited data

Results flagged for a closer look

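These results stood out because the effect of EPZ-6438 differed between settings by a test of the difference itself. With DAC minus without DAC in IMR5-75, the difference was -4.08 ± 0.44 for FOS (adjusted p = 0.000137), -1.64 ± 0.26 for ADCYAP1 (adjusted p = 0.0138), 1.29 ± 0.19 for NEFM (adjusted p = 0.0071) and 1.56 ± 0.25 for RGS4 (adjusted p = 0.0167).

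Between the lines, IMR5-75 minus Be(2)-C on a DAC background, the 4 positive differences went with falls in Be(2)-C. GDF15, a stress cytokine, differed by 4.20 ± 0.72 (adjusted p = 0.00693). It had 11.4 and 14.5 CPM in IMR5-75 DAC+EPZ cells against 12 and 8.11 CPM in IMR5-75 DAC cells, and 0.267 and 0.419 CPM in Be(2)-C DAC+EPZ cells against 2.63 and 7.5 CPM in Be(2)-C DAC cells. INHBE, an inhibin subunit, differed by 2.77 ± 0.44 (adjusted p = 0.00416) and HMOX1, haem oxygenase, by 2.55 ± 0.48 (adjusted p = 0.0124). For GDF15, INHBE and HMOX1 the Be(2)-C DAC replicates lay apart, and their calls held in 5, 7 and 5 of 8 fits that left out a library. HIST1H4F differed by 2.42 ± 0.34 (adjusted p = 0.00153).

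Negative differences went with rises in Be(2)-C. They were -2.56 ± 0.21 for PDGFRA (adjusted p = 1.31e-06), -2.77 ± 0.48 for the synaptic adhesion gene NLGN4X (adjusted p = 0.00693), -2.87 ± 0.43 for the mitochondrial carrier SLC25A24 (adjusted p = 0.00218) and -3.88 ± 0.54 for the thrombin receptor F2R (adjusted p = 0.000845). F2R had 63.8 and 57.6 CPM in IMR5-75 DAC+EPZ cells against 63.1 and 67.6 CPM in IMR5-75 DAC cells. In Be(2)-C it had 2.23 and 1.57 CPM in DAC+EPZ cells against 0.0823 and 0.185 CPM in DAC cells. These Be(2)-C levels rest on 40 and 3 counts over each group. The NLGN4X call held in 6 of 8 fits.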

How the results depend on the processing

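The main comparison called 541 genes with no filter, 124 with a replicate block (90 higher, 34 lower), 164 with the IMR5-75 libraries alone and 430 with the 4 libraries alone; leaving out each library gave 49 to 228. DESeq2 size factors gave 311 (222 higher, 89 lower) and the Wald test 295. EPZ-6438 against DMSO gave 740 with no filter, 188 with the block and 32 to 323 without a library. The difference with and without DAC gave 84 with no filter, 4 with the block, 1 with IMR5-75 alone and 1 to 10 without a library. Be(2)-C gave 607 with the block and 314 to 446 without a library. The difference between lines gave 206 with no filter, 132 by the Wald test, 47 with the block and 27 to 68 without a library. Replicate numbers did not pair the libraries and may be crossed: over 10052 genes, same-numbered deviations correlated at r = -0.549 between DAC+EPZ and DAC and -0.473 between DAC+EPZ and EPZ, but at 0.504 between DAC+EPZ and DMSO. A crossed replicate block, chosen after seeing the data, gave 1016, 1060, 29, 1606 and 212 calls in the 5 comparisons, and 42 mitosis, 23 DNA replication, 11 MYC and MYCN target and 4 p53 target genes lower; the plain block gave 16, 1, 0 and 0. Of 743 fits of named changes called with all libraries, 567 kept direction and call and 176 lost the call. Of 99 fits of changes not called, 95 kept their sign and stayed uncalled and 4 changed sign: EED (0.02) and DNMT3A (0.06) without DAC+EPZ 2, and DNMT3A (0.03) and MYCN (0.04) without DAC 1. Leaving out a library gave -0.25 to 0.02 for EED, -0.06 to 0.06 for DNMT3A and -0.22 to 0.04 for MYCN. The cause was not tested. With 2 libraries a group, genes with few counts, such as most of the largest rises, carry wide errors.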

Other observations

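Among the 115 called lower genes DAC 2 exceeded DAC 1 in 95 (median difference 0.21 on the log2 scale), and DAC+EPZ 1 exceeded DAC+EPZ 2 in 75. Among the 194 called higher genes DAC 2 exceeded DAC 1 in 89 (median -0.04), and over all 15967 tested genes in 7999. Ribosomal protein genes, with 0 called, summed to 56950 and 69360 CPM in DAC+EPZ cells, against 65190 and 59750 CPM in DAC cells. The histone list summed to 5696 and 8018 CPM in DAC+EPZ cells, against 8947 and 7069 CPM in DAC cells. In both lists the replicates of a group lay farther apart than the group means.

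A list of genes described as EZH2-repressed in neuroblastoma had 2 of 22 tested members higher (DKK1 and IGFBP3) and 0 lower. The share higher was 9.09%, against 1.22% of all tested genes, and the median change was 0.34. IGFBP3, a binding protein of insulin-like growth factors, had 60.3 and 62.1 CPM in DAC+EPZ cells, against 33.6 and 33.8 CPM in DAC cells (0.86 ± 0.17, adjusted p = 0.011). Without DAC 2 the list had 0 called members and without DAC 1 it had 5.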
